A study of Mus musculus with 12 samples.

Results

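Protein-coding genes on both sides of Mtdh on mouse chromosome 15 were compared between livers of mice with a knockout (KO) of Mtdh and wild-type (WT) livers. The genes were taken by position: a start between 24000000 and 44000000 on chromosome 15 (mm39) and the biotype protein_coding in the deposited table, without Mtdh itself and the 2 genes Rpl30 and Cox6c. This gave 61 flanking genes among 22557 in the table, and the 56 of them that reached a value of 10 or more in 3 or more of the libraries were tested. The data are RNA sequencing of whole liver from 12 female, age-matched mice in 4 groups of 3 different mice: WT and Mtdh KO without a tumour, and WT and Mtdh KO carrying an allograft of Py8119, a mouse mammary tumour cell line. Neither the strain, nor the age in weeks, nor how the Mtdh allele was made is given in the sources used here.

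Mtdh encodes metadherin, a membrane-associated and nuclear protein studied in tumour growth and metastasis. A knockout allele is inherited together with the DNA around it, so genes beside it can carry sequence from the strain in which the allele was made, and a cassette or a deletion at the locus can alter the expression of neighbours in cis. Both kinds of effect are known from mouse genetics, and the genes next to the locus are where they are looked for. The comparison here addresses whether flanking genes differed between KO and WT liver, and how this varied with distance from Mtdh.

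Mtdh (ENSMUSG00000022255, chromosome 15, 34082840 to 34145770, plus strand) was the check of the labels. Its values were 4329.6, 5375 and 4973 (WT) and 584, 436 and 627 (KO) in livers without a tumour, and 5290.2, 3954 and 5702 (WT) and 1063, 380.0 and 323 (KO) in livers with one. Its normalised signal averaged 11.2% of the WT mean in tumour-free KO livers and 11.8% in those with a tumour, and each of the 6 KO libraries lay below each of the 6 WT libraries. Averaged over tumour states the log2 fold change was −3.22 ± 0.25 (SE; limma adjusted p = 4.46e-05). All fold changes given are differences of log2(value + 1), and the adjusted p-values are those of limma over 17380 genes. On this scale the added 1 shrinks ratios of low values, while a single value of 0 can widen a difference, as for Angpt1 below. The hepatocyte markers were present in each library, with a summed signal of 2750670 to 4547630 over 6 genes. Estimated depths ran from 25700000 to 43000000 reads, apart from KO_tumor replicate 1 at 12700000. That library and KO_no_tumor replicate 3, which had 5.32% of its signal in small nuclear RNAs and 4.84% in small nucleolar RNAs, stood apart from the rest. In bulk tissue, fewer cells of a type and less RNA per cell cannot be told apart.

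No flanking gene passed limma in KO against WT liver. The count was 0 of 56 without a tumour, 0 of 56 with a tumour and 0 of 56 averaged over tumour states, where 0.00575%, 0.023% and 0.0115% of all 17380 tested genes passed. At an unadjusted p under 0.05 there was 1 flanking gene without a tumour (1.79%, against 1.93% of all tested genes), 13 with a tumour (23.2%, against 14.4%) and 10 in the averaged comparison (17.9%, against 10.3%). With a tumour 8 of these were higher in KO (14.3%, against 6.31%) and 5 lower (8.93%, against 8.13%). In the averaged comparison 7 were higher (12.5%, against 4.86%) and 3 lower (5.36%, against 5.43%). Flanking genes had a higher median signal than all tested genes (902 against 184) and a smaller median averaged SE (0.22 against 0.35). Of 13860 tested protein-coding genes, 247 had an unadjusted p under 0.05 without a tumour, 2157 with one and 1552 averaged. The part of the signal level in these shares was not tested. The smallest limma adjusted p among the flanking genes was 1 without a tumour, 0.145 with a tumour and 0.386 averaged. All of these counts of 0 were also 0 without KO_no_tumor replicate 3 and KO_tumor replicate 1. With a tumour, weighting the libraries by their quality called 9 flanking genes (16.1%, against 9.57% of all tested genes), which were Klf10, Cmbl, Dpys, Rida, Tspyl5, Cct5, Laptm4b and Ropn1l, higher, and Retreg1, lower. Leaving out WT_tumor replicate 2 called 4 (7.14%, against 1.21%).

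The flanking genes were also compared with the rest of the table as a group. Their median log2 fold change was −0.07 without a tumour, −0.11 with a tumour and −0.11 averaged. Over all tested genes it was −0.01, −0.12 and −0.08. Over the 13860 tested protein-coding genes, the biotype of the flanking genes, it was −2.7e-16, −0.05 and −0.03. Over 485 other tested protein-coding genes of chromosome 15 these medians were 0.04, −0.0035 and 0.03. Without KO_tumor replicate 1, the median with a tumour was −0.09 for the flanking genes and −0.0013 for all tested genes. In the averaged comparison 19 flanking genes (33.9%) were above 0 and 37 below, beside 43.3% above 0 over all tested genes and 54.0% over the other chromosome 15 genes. The 2 genotype comparisons share no library, and 38 of 56 flanking genes (67.9%) had the same sign in both, beside 57.1% of all tested genes.

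**Figure D1:**
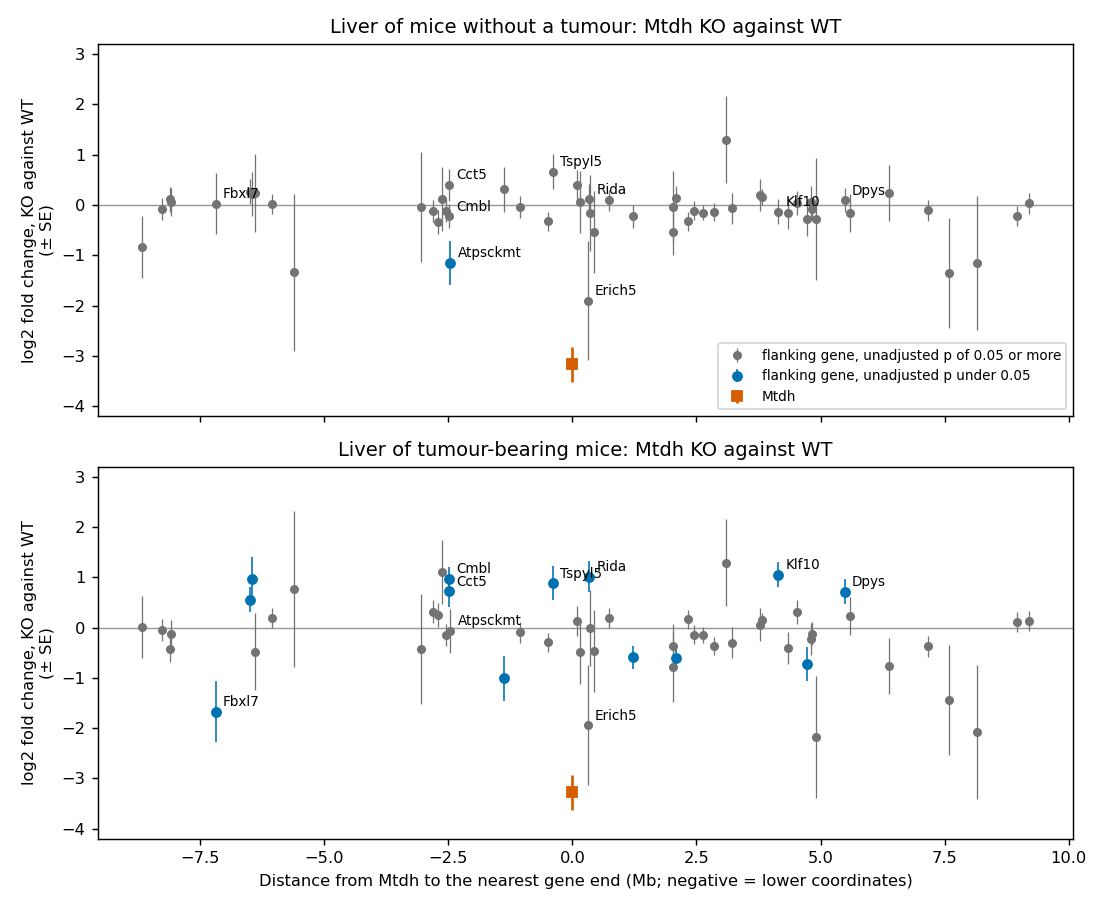
Log2 fold change of KO against WT (± SE) for the 56 tested flanking genes and Mtdh, by distance from Mtdh in Mb, in livers without a tumour (top) and with a tumour (bottom); blue points have an unadjusted p under 0.05. Mtdh lies at −3.16 and −3.28, and flanking genes near it and far from it scatter around 0.

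The size of the differences did not fall off evenly with distance. In the averaged comparison the median absolute log2 fold change was 0.31 for the 9 genes under 1 Mb from Mtdh, 0.38 for the 11 genes at 1 to 2.5 Mb, 0.18 for the 18 at 2.5 to 5 Mb and 0.25 for the 18 beyond 5 Mb. It was 0.33 over all tested genes and 0.28 over tested protein-coding genes. At an unadjusted limma p under 0.05 averaged, there were 4 of 9, 3 of 11, 1 of 18 and 2 of 18 genes in the same order. All tested genes had 10.3%. With a tumour there were 2, 5, 2 and 4 (all tested genes 14.4%), and without one 0, 1, 0 and 0 (1.93%). These shares by distance were not tested. Across the 56 genes, which are not independent replicates, Spearman's rank correlation between distance and absolute log2 fold change was −0.14 averaged, −0.14 without a tumour and −0.04 with a tumour. The mean signal had a stronger relation with it (rank correlation −0.42 averaged) and with the standard error (−0.83). From the nearest distance group to the farthest, the median signal was 206, 1543, 1113 and 369. The median averaged SE was 0.24, 0.17, 0.20 and 0.23 in that order. The part of the signal level in the differences between distance groups was not tested. The 22 genes at lower coordinates than Mtdh had a median log2 fold change of −0.07 and the 34 at higher coordinates −0.14, averaged.

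How large a difference the data leave room for is given by the 95% intervals. For 54 of 56 flanking genes the interval of the averaged log2 fold change lay above the value of Mtdh, −3.22, and it reached that value for Erich5 and Angpt1. For 32 of 56 (57.1%, against 44.9% of all tested genes) it lay within 1 of 0, that is within a 2-fold change in either direction. The intervals of the other 24 reached a 2-fold difference or passed it, so a difference of that size lies within them. Standard errors of the averaged log2 fold change ran from 0.11 to 1.10 with a median of 0.22, beside a median of 0.35 over all tested genes.

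**Figure D2:**
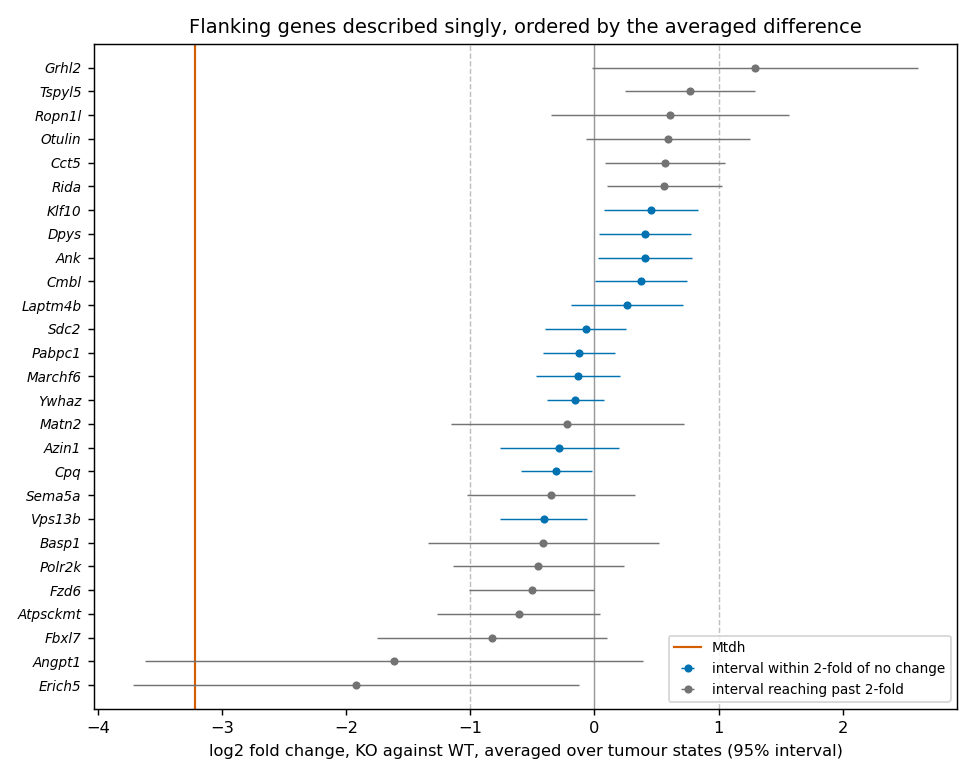
Averaged log2 fold change of KO against WT with its 95% interval for the 27 flanking genes described singly, ordered by value; dashed lines mark a 2-fold change and the orange line marks Mtdh at −3.22. Blue intervals, 12 of them, stay within 2-fold of no change.

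The genes nearest to Mtdh were examined one by one. At lower coordinates the nearest is Tspyl5 (ENSMUSG00000038984, 33684021 to 33688030, 0.395 Mb away), a member of the nucleosome assembly protein family. Its values were 157, 143 and 196 (WT) and 207, 214 and 393 (KO) in livers without a tumour, and 117, 148 and 142 (WT) and 256, 271 and 225 (KO) in livers with one. Every KO library lay above every WT library, which also held in each tumour state alone. The log2 fold change was 0.66 ± 0.35 without a tumour, 0.88 ± 0.35 with a tumour and 0.77 ± 0.24 averaged (limma adjusted p = 0.386), and 0.62 to 0.85 averaged with each library left out in turn. The gene missed the threshold over all genes in each of these comparisons while its groups did not overlap. With the libraries weighted by quality the difference with a tumour was 0.89 (limma adjusted p = 0.0367). Of all tested genes, 0.15% were higher in each KO library than in each WT library.

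Cpq (33083275 to 33594698, 0.488 Mb away) encodes carboxypeptidase Q, a secreted peptidase. Its values were 1574, 1574 and 1298 (WT) and 1005, 1133 and 1443 (KO) in livers without a tumour, and 1435, 1487 and 1339 (WT) and 1053, 1119 and 1326 (KO) in livers with one. Each KO library with a tumour was below each WT library with a tumour, and the groups overlapped without one. The averaged log2 fold change was −0.31 ± 0.13 (limma adjusted p = 0.471). Farther out on that side, Sdc2, the gene of the cell-surface proteoglycan syndecan 2, was at −0.07 ± 0.15 averaged. Sema5a, which encodes a transmembrane semaphorin, was at 0.31 ± 0.45 without a tumour and −1.01 ± 0.45 with one. The Sema5a values in KO livers with a tumour, 78.9, 103 and 106, were below those of WT livers with a tumour, 207, 153 and 229.7.

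On the side of higher coordinates Laptm4b (34238174 to 34284448, 0.0924 Mb away), which encodes a lysosomal membrane protein, is the nearest gene. Its values were 1085, 1372 and 1166 (WT) and 1419, 1793 and 1538 (KO) in livers without a tumour, and 1032, 1601 and 1037 (WT) and 747, 1779 and 1692 (KO) in livers with one. The KO livers without a tumour were all above the WT livers without a tumour, and with a tumour KO replicate 1, the library of lowest depth, was the lowest of the 6. The log2 fold change was 0.39 ± 0.30 and 0.13 ± 0.30 in the respective states. With a tumour it was −0.090 to 0.54 with each library left out in turn, and 0.60 with the libraries weighted by quality (limma adjusted p = 0.0397). Matn2, the gene of the matrix protein matrilin 2, ran from 29.3 to 121.7 over the 12 libraries with overlapping genotypes (−0.22 ± 0.44 averaged).

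Erich5 (34453451 to 34474038, 0.308 Mb away) was close to the limit of detection. Its values were 12.4, 19.6 and 13.3 (WT) and 18, 3.01 and 0 (KO) in livers without a tumour, and 9.36, 9.36 and 5.53 (WT) and 0, 3.9 and 1.54 (KO) in livers with one. KO livers with a tumour lay below WT livers with a tumour, and 2 of 6 KO libraries were listed at 0, which were the pair that stood apart. The averaged log2 fold change of −1.92 ± 0.84 (limma adjusted p = 0.471) became −0.66 with a pseudocount of 10 and −1.10 without the 2 libraries.

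Rida (34484167 to 34495401, 0.338 Mb away) encodes an abundant liver enzyme that removes reactive imines arising in amino acid metabolism. Its values were 8396, 12293 and 8022 (WT) and 8681, 12515 and 9753 (KO) in livers without a tumour, and 4099.8, 9635 and 3876 (WT) and 11784, 11510.1 and 9211 (KO) in livers with one. In WT livers with a tumour replicates 1 and 3 were the lowest of the 12 libraries, whereas replicate 2 lay within the range of the KO livers. The difference was 0.12 ± 0.31 without a tumour and 1.01 ± 0.31 with a tumour (limma adjusted p = 0.204). Without WT_tumor replicate 2 it was 1.43 (limma adjusted p = 0.0148). Pop1, a subunit of RNase P and RNase MRP, lies head to head with Rida, with 48 bases between the starts. Its values, from 23.6 to 123.9, overlapped between genotypes in both states.

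**Figure D3:**
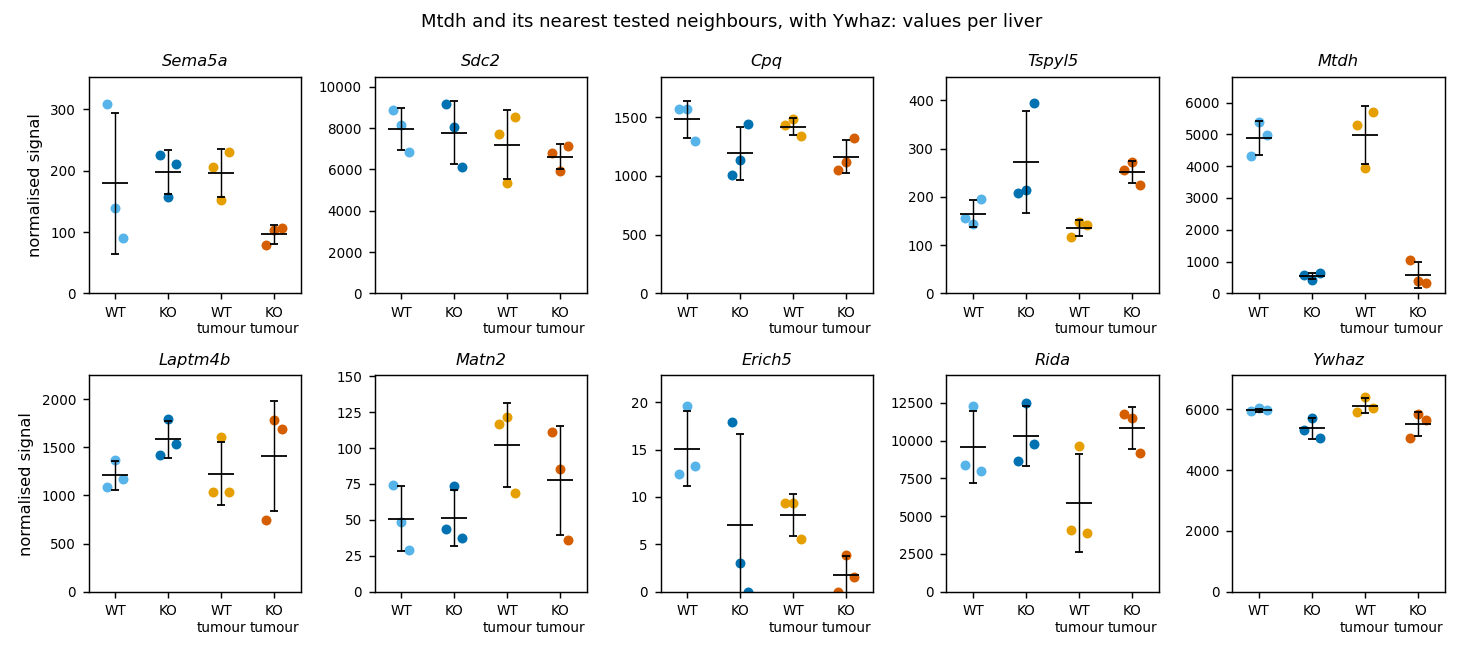
Normalised signal of Mtdh, its 4 nearest tested neighbours on each side and Ywhaz in the 12 livers; points are libraries and bars are the mean ± SD of 3, with lower arms that would pass 0 not drawn below it. Mtdh separates the genotypes widely, Tspyl5 is higher and Ywhaz lower in each KO liver, and Rida is lowest in a pair of WT livers with a tumour.

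Ywhaz, 2.63 Mb from Mtdh, was the other flanking gene whose genotypes did not overlap over 6 against 6 libraries. It encodes the adaptor protein 14-3-3 zeta. Its values were 5926, 6025 and 5959 (WT) and 5321, 5719 and 5060.1 (KO) in livers without a tumour, and 5913, 6395 and 6035 (WT) and 5070.0, 5851 and 5636 (KO) in livers with one. The difference was small, at −0.15 ± 0.11 averaged (limma adjusted p = 0.602), and the 95% interval ran from −0.38 to 0.08. Such separation was seen in 2 of 56 flanking genes (3.57%) and in 0.414% of all tested genes, 0.265% being lower in each KO library. In the separate states, 7 flanking genes (12.5%, against 7.93%) did not overlap without a tumour and 12 (21.4%, against 17.9%) with a tumour. Without a tumour 3 were higher in KO (5.36%, against 3.56%), Tspyl5, Laptm4b and Grhl2, and 4 lower (7.14%, against 4.37%), Atpsckmt, Ankrd46, Ywhaz and Abra. With a tumour 4 were higher (7.14%, against 8.11%), Tspyl5, Cmbl, Klf10 and Dap, and 8 lower (14.3%, against 9.8%), Cpq, Erich5, Sema5a, Fbxl7, Ywhaz, Zfp706, Fzd6 and Zfpm2. Tspyl5 and Ywhaz are therefore the 2 genes on both lists.

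By role, 5 of the 11 tested genes of small-molecule metabolism (45.5%, against 10.3% of all tested genes) had an unadjusted p under 0.05 in the averaged comparison, and 0 of 11 passed over all genes. The 5 were Ank, Cmbl, Rida and Dpys, higher in KO, and the peptidase gene Cpq, lower. The role lists were made with results known, and these shares were not tested. The median log2 fold change of the 11 was 0.13 averaged, with 6 above 0 and 5 below, beside −0.08 over all tested genes. Dpys, the dihydropyrimidinase of pyrimidine breakdown, had values of 3522, 4382 and 2854 (WT) and 3426, 4290.3 and 3689.5 (KO) in livers without a tumour, and 2314, 3981 and 2054 (WT) and 4374, 3731 and 5138 (KO) in livers with one. WT livers with a tumour, apart from replicate 2, were lower than the other libraries. The difference was 0.72 ± 0.25 with a tumour (limma adjusted p = 0.241) and 1.01 without WT_tumor replicate 2 (limma adjusted p = 0.0448).

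Cmbl (31565535 to 31590265, 2.49 Mb away) encodes carboxymethylenebutenolidase, a hydrolase of liver. Its values were 1862, 1513 and 1468 (WT) and 1311, 1736 and 1151 (KO) in livers without a tumour, and 918, 1347 and 919 (WT) and 2786, 1683 and 1823 (KO) in livers with one. Each KO liver with a tumour was above each WT liver with a tumour, and without a tumour the genotypes overlapped. The difference was −0.22 ± 0.24 without and 0.97 ± 0.24 with a tumour (limma adjusted p = 0.151), with an interaction of 1.19 ± 0.34 that did not pass (limma adjusted p = 0.859). Without WT_tumor replicate 2 the difference with a tumour was 1.15 (limma adjusted p = 0.0468). Ank, the gene of a membrane protein that exports pyrophosphate and ATP, was at 0.41 ± 0.18 averaged. It overlaps Otulin on the opposite strand by 52275 bases. Without a stated use of strand, reads from any stretch where both have exons cannot be told apart. Exon positions were not compared.

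Among 12 tested genes of RNA, transcription and translation, a list that includes Cct5, 3 lay above 0 and 9 below in the averaged comparison, with a median of −0.09. Klf10 (38291707 to 38300950, 4.15 Mb away), a zinc-finger transcription factor induced early by growth factor signals, had values of 1952, 1583 and 1630.0 (WT) and 1318, 1661 and 1728 (KO) in livers without a tumour, and 1418, 1638 and 2362 (WT) and 2515, 4734 and 4069 (KO) in livers with one. Each KO liver with a tumour exceeded each of the other 9 livers. The difference was −0.14 ± 0.25 without a tumour and 1.05 ± 0.25 with one (limma adjusted p = 0.145). With the libraries weighted by quality it was 1.36 with a tumour (limma adjusted p = 0.000841). The interaction was 1.18 ± 0.35 (limma adjusted p = 0.859).

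Cct5, a subunit of the cytosolic chaperonin that folds actin and tubulin, had values of 1864, 1196 and 1409 (WT) and 2160.4, 2338 and 1446 (KO) in livers without a tumour, and 1314, 2959.6 and 1128 (WT) and 3218, 2559 and 2416 (KO) in livers with one. WT_tumor replicate 2 again lay among the KO livers. The difference was 0.41 ± 0.32 without and 0.73 ± 0.32 with a tumour, and 1.15 without that library (limma adjusted p = 0.0491). Polr2k, a small subunit shared by the RNA polymerases, was at −0.45 ± 0.32 averaged. Pabpc1, the cytoplasmic poly(A)-binding protein gene, and Azin1, which protects ornithine decarboxylase from breakdown, are among the 5 flanking genes with the highest mean signal, not divided by transcript length, and were at −0.13 ± 0.14 and −0.28 ± 0.22.

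Cct5 and Atpsckmt, the gene of a mitochondrial lysine methyltransferase, lie head to head with 47 bases between them in the deposited coordinates. Their promoter windows (250 bases before to 50 after a start, RefSeq, GRCm38.p6) overlap by 231 bases and are shown because 2 genes with opposite signs of the averaged difference share most of this sequence. The RefSeq starts of these windows lie farther apart than the 47 bases of the deposited coordinates. The windows therefore do not both belong to the deposited starts. Cct5 is at chr15:31601797-31602096, minus strand, and Atpsckmt at chr15:31601866-31602165, plus strand, each written 5′ to 3′ on its own strand. Capitals mark the letters CGCATGCG, the core of the motif that NRF1 is known to bind, and ACTTCCGG, an ETS-type site, both searched on either strand.
Cct5: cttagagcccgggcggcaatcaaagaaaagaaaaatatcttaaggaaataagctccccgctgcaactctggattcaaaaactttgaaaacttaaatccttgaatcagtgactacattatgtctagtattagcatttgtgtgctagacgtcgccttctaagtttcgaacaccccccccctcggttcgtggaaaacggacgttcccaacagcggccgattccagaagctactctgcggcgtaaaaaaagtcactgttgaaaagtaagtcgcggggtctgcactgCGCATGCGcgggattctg
Atpsckmt: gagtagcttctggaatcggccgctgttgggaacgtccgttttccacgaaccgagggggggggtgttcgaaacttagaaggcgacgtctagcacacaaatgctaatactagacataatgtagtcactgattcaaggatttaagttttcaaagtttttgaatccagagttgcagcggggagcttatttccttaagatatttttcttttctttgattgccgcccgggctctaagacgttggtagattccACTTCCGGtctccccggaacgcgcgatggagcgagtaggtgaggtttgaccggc
Neither marked stretch lies in the bases that the windows share. The NRF1 letters are in 1.87% and the ETS letters in 3.89% of 32851 RefSeq windows of this length, and a match is a description of the sequence. The Cct5 window has 19 CG dinucleotides and the Atpsckmt window 20, against a median of 7 over all windows. The table held windows for 19 of the 61 flanking genes.

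Atpsckmt values were 148, 290.3 and 216 (WT) and 74, 145 and 77.3 (KO) in livers without a tumour, and 211, 225 and 149 (WT) and 287, 148 and 145 (KO) in livers with one. The KO livers without a tumour were all below the WT livers without a tumour, and with a tumour the genotypes overlapped. The difference was −1.15 ± 0.43 without a tumour (unadjusted p = 0.0186, limma adjusted p = 1) and −0.07 ± 0.43 with one. It was the 1 flanking gene with an unadjusted p under 0.05 in livers without a tumour.

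Genes of signalling, adhesion and matrix had 3 of 12 tested members above 0 and 9 below in the averaged comparison, with a median of −0.19, and 0 passed. Fzd6, a Wnt receptor gene, had values of 179.5, 238 and 305 (WT) and 159, 275 and 166 (KO) in livers without a tumour, and 367, 307 and 318 (WT) and 165, 205 and 232 (KO) in livers with one. KO livers with a tumour were below WT livers with a tumour, and the averaged difference was −0.50 ± 0.23 (limma adjusted p = 0.486). Angpt1, which encodes the vascular ligand angiopoietin 1, was listed at 0 in KO_tumor replicate 1 and ran from 15.1 to 140.0 in the other libraries. Its averaged difference of −1.62 ± 0.94 was −0.58 without that library. The marker sum of stellate cells and fibroblasts was 17180.3 to 21405 in WT livers with a tumour and 13228 to 16222 in KO livers with a tumour. The marker sum of neutrophils was 105 to 372 and 7.4 to 93.9 in these 2 groups, with all 6 markers above 0 in some library. The erythroid sum was 4802 to 7204 and 1668 to 6466, and that of mammary epithelium 4335 to 5546 and 2662 to 5893, with overlap between the genotypes in both. The mammary list (Krt8, Krt18, Epcam, Krt5 and Krt14) is not particular to mammary cells. Its sum was 2238 to 2929 in WT livers without a tumour. The sums of Kupffer, T and B cell markers overlapped as well. The part of these cell types in the differences with a tumour was not tested.

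Genes of protein turnover had 2 of 6 tested members above 0 and 4 below in the averaged comparison, and 0 passed. Fbxl7, a subunit of a ubiquitin ligase, had values of 63.2, 77.8 and 70 (WT) and 124, 50.4 and 57.9 (KO) in livers without a tumour, and 54, 70.6 and 64.2 (WT) and 19.7, 11.7 and 29.2 (KO) in livers with one. The KO livers with a tumour were the lowest 3 of the 12 libraries. The difference was 0.02 ± 0.61 without and −1.67 ± 0.61 with a tumour (limma adjusted p = 0.257). Otulin, a deubiquitinase of linear ubiquitin chains, was at 0.59 ± 0.31 averaged and at 0.35 without KO_tumor replicate 1, where its value of 944.4 was the highest. Marchf6, a ubiquitin ligase of the endoplasmic reticulum, was at −0.13 ± 0.16.

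Of 6 tested genes of membrane traffic and organelles, 3 were above 0 and 3 below. Vps13b, a large lipid transfer protein gene 1.23 Mb from Mtdh that overlaps Cox6c on the opposite strand by 5344 bases, averaged 5414 ± 1140.1 in WT and 4064 ± 765 in KO livers (SD, n = 6), a log2 fold change of −0.41 ± 0.16 (limma adjusted p = 0.435). Of 7 tested genes of neurons, cilia and sperm, a list that includes Tspyl5, 2 were above 0 and 5 below, with a median of −0.18. Ropn1l, a sperm and cilium protein gene, was at 0.61 ± 0.45 and Basp1, a gene of neuronal growth cones, at −0.41 ± 0.44 averaged. With each library left out in turn these ran from 0.41 to 0.98 and from −0.60 to −0.076. Ropn1l with a tumour was 1.10 ± 0.63, and 1.48 with library weights (limma adjusted p = 0.047). Grhl2, an epithelial transcription factor gene, had the highest averaged value, 1.30 ± 0.61. Its KO_tumor replicate 1 value of 194.8 was more than that of any other library, and without it the difference was 0.82. Without a tumour Grhl2 stood at 14.9, 12.6 and 13.3 in WT livers and at 51, 28.6 and 28.9 in KO livers, with each KO liver above each WT liver. The summed level of 5 mammary epithelium markers, all epithelial genes such as Epcam and Krt8, overlapped there, at 2238 to 2929 and 2406 to 2802. Its part in the Grhl2 values was not tested.

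**Figure D4:**
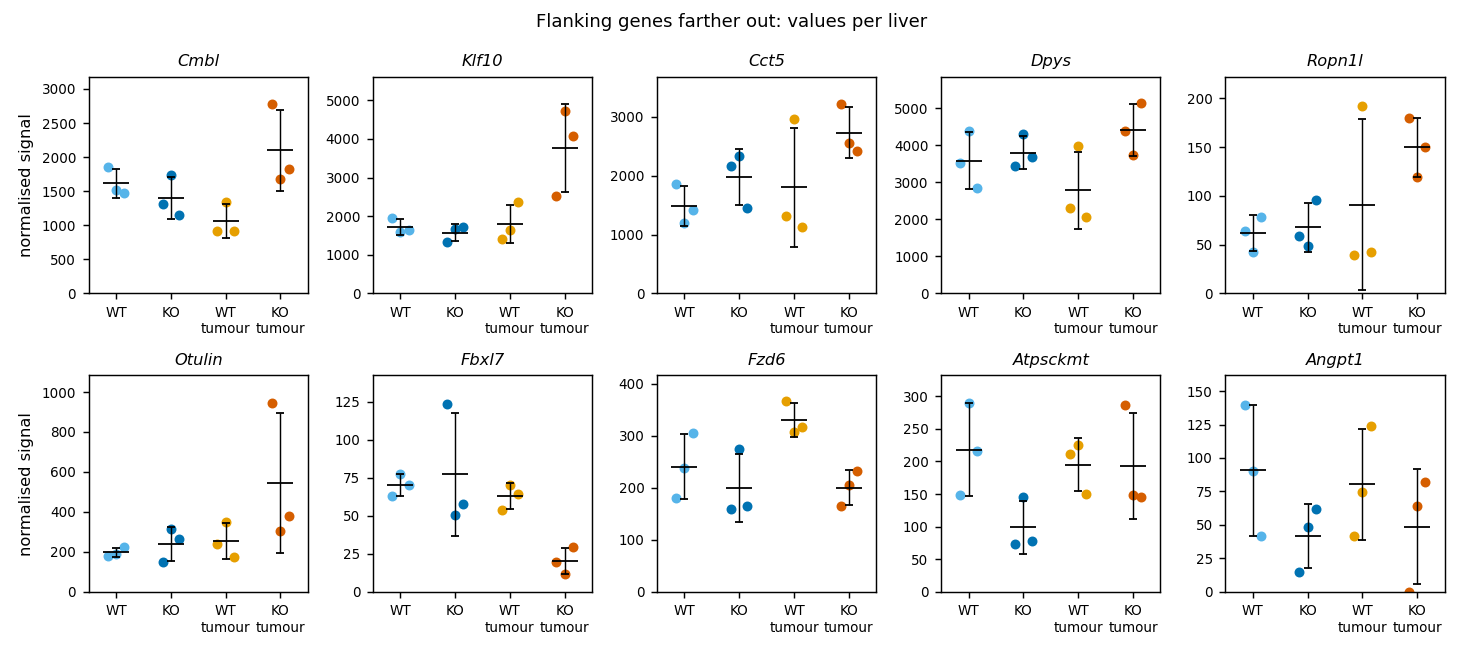
Normalised signal of 10 flanking genes farther from Mtdh in the 12 livers; points are libraries and bars are the mean ± SD of 3, with lower arms that would pass 0 not drawn below it. Cmbl and Klf10 are higher and Fbxl7 and Fzd6 lower in KO than in WT livers with a tumour without overlap, and none of these passed limma over all genes.

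The other 29 tested flanking genes ran from −1.40 ± 0.77 for Abra, a gene of an actin-binding protein of striated muscle, to 0.18 ± 0.17 for Atp6v1c1, a subunit of the proton pump of acidic organelles, in the averaged comparison. Of these, 8 lay above 0 and 21 below, 0 had an unadjusted p under 0.05, and for 20 the 95% interval stayed within a 2-fold difference. These 29 are what was left once genes had been named for large differences or after their values were seen. The count of 0 follows from that choice and is no separate result. Abra was low, with values of 11.6, 21.5 and 10.9 (WT) and 5.9, 4.85 and 3.95 (KO) in livers without a tumour, and 11.4, 12.6 and 1.42 (WT) and 0, 5.21 and 2.31 (KO) in livers with one. Rims2, a synaptic scaffold gene, was next to it at −1.23 ± 0.86, and it was listed at 0 in KO_tumor replicate 1 alone. The 95% intervals of Eif3e, a translation initiation factor subunit, and Emc2, a subunit of the complex that inserts membrane proteins, were −0.36 to 0.25 and −0.23 to 0.39.

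The remaining 5 flanking genes, Fbxo43, Baalc, Cthrc1, Dcstamp and Rspo2, were too low to be tested. Their highest values over the 12 libraries were 19.2, 6.02, 6.5, 15.8 and 16.8. No comparison was made for them.

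The tumour itself was also compared within each genotype, from libraries that the genotype comparisons share. Of the 56 flanking genes 0 passed in WT livers (against 0.679% of all tested genes) and 0 in KO livers (against 0%). At an unadjusted p under 0.05 there were 3 in WT (5.36%, against 8.67%) and 11 in KO (19.6%, against 12.7%). Klf10 was at 0.04 ± 0.25 with a tumour in WT and 1.23 ± 0.25 in KO (limma adjusted p = 0.275), Cmbl at −0.62 ± 0.24 and 0.57 ± 0.24, and Rida at −0.81 ± 0.31 and 0.08 ± 0.31. The genotype by tumour interaction was passed by 0 flanking genes and 0% of all tested genes, and 3 flanking genes (5.36%, against 4.7%) had an unadjusted p under 0.05, which were Cmbl, Klf10 and Rnf19a.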

How the data were processed

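Whole-liver RNA was sequenced from 12 mice, with 1 library per mouse and 3 per group, grouped by the sample labels. The deposited values are gene signal that the authors divided by a size factor per library (DESeq2 normalization). STAR 2.7.8a, Partek, DESeq2 and mm39 are named in the submitters' processing notes. What counted the reads, from which annotation release and by which strand rule is not given in the sources used here. Low values were whole multiples of a step, within 0.01 of a read, for 78.1% to 84.9% of values per library, so no count model was fitted and depths are estimates from that step. Each of the 12 columns matched a sample, and 0 columns were left over.

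From these, log2(value + 1) was fitted with limma 3.58.1 (R 4.3.3, trended variance, a mean per group) over the 17380 genes that reached 10 in 3 or more libraries. Tests were two-sided with Benjamini-Hochberg adjustment over all of them at 0.05, and the code was tested on simulated data. Members, role lists and markers were chosen with earlier results of these data known, and the members' counts and medians were described with no test of the list. Coordinates are the table's starts with inclusive ends, and distances run between the nearest gene ends.

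The genes named in full were any member called, the 4 nearest tested on each side of Mtdh, the 6 largest increases and 6 largest decreases with a mean of at least 50, any of that level whose genotypes did not overlap, and the 5 with the highest mean. Cmbl, Dpys, Grhl2, Vps13b, Ank and the other genes named outside this rule were chosen after their values were seen. Alternatives covered the pseudocount, the filter, both rescalings, the variance model, library weights, the libraries and genes fitted, a replicate block, the window and each library left out. The fit without both libraries that stand apart was chosen after seeing the data.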

Additional observations from a re-analysis of the deposited data

How the results depend on the processing

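The counts of 0 flanking genes held in each of the 6 comparisons under each alternative run except library weights and the omission of WT_tumor replicate 2. KO against WT with a tumour gave 9 with library weights and 0 to 4 with each library left out, the 4 (Cct5, Cmbl, Dpys and Rida) being those without WT_tumor replicate 2. The tumour in WT gave 1 with library weights (Cmbl) and 0 to 1 with each library left out (Rida, without WT_tumor replicate 2), and the tumour in KO gave 1 with library weights (Klf10). For KO against WT with a tumour, 9.57% of all tested genes were called with library weights and 1.21% without WT_tumor replicate 2. For the tumour within each genotype, the shares of all tested genes in these fits are not given here. The calls of 1 gene are therefore not read as a result about flanking genes. The cause was not tested. The flanking genes' median log2 fold change moved by less than 0.0877, the spread of library medians within groups, under each alternative, the window of 5 Mb included. Quantile normalization moved the median of all tested genes with a tumour from −0.12 to 0.0045, with the flanking genes at −0.05. Omitting KO_tumor replicate 1 moved the median of all tested genes to −0.0013, with the flanking genes at −0.09.

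Of 1820 alternative values for single genes, 38 changed sign, 2 of them in the averaged comparison. Angpt1 with a tumour was the 1 gene that did so from beyond 0.5, from −2.08 to 0.24 with library weights. Without a tumour, library weights gave −0.12 for Ropn1l and 0.046 for Sdc2. Fbxl7 without a tumour was −0.025 at equal totals and −0.00389 after quantile normalization, and Basp1 with a tumour was −0.00898 at equal totals. Without both libraries that stand apart, Basp1 with a tumour was −0.095, and without a tumour Ropn1l was −0.16, Sdc2 0.12 and Pabpc1 0.012. With each library left out, the ranges that crossed 0 without a tumour were Azin1 −0.36 to 0.21, Dpys −0.054 to 0.26, Fbxl7 −0.37 to 0.27, Marchf6 −0.27 to 0.051, Matn2 −0.28 to 0.38, Otulin −0.00702 to 0.54, Pabpc1 −0.25 to 0.012, Rida −0.029 to 0.31, Ropn1l −0.16 to 0.32, Sdc2 −0.17 to 0.12 and Sema5a −0.081 to 0.80. With a tumour they were Atpsckmt −0.39 to 0.10, Basp1 −0.18 to 0.29, Laptm4b −0.090 to 0.54, Marchf6 −0.32 to 0.00615 and Sdc2 −0.30 to 0.039, and averaged Matn2 −0.39 to 0.016 and Sdc2 −0.17 to 0.00968. The call of Mtdh without a tumour was lost when replicate 2 of either group without a tumour was left out (limma adjusted p = 0.0657 for WT and 0.0519 for KO), and with a tumour when only those 2 groups were fitted (0.114).

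The replicate block gave 0 called flanking genes in each of the 6 comparisons, as without it. The numbers showed no pairing: 0 of 18 pairs of libraries with the same number had deviations correlated above 0.1 (−0.094 to 0.0998), and in 7 of 18 such comparisons a library correlated best with its own number. Depth was lowest in KO_tumor replicate 1, where 5 tested flanking genes (Angpt1, Dnah5, Erich5, Rims2 and Abra) were listed at 0.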

Other observations

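The same stretch of chromosome 15 holds 54 rows that are not protein-coding, of which 21 were tested and 0 passed limma in any of the 6 comparisons. At an unadjusted p under 0.05 there were 2 (9.52%) in KO against WT without a tumour, 2 with a tumour and 2 averaged, beside 1.93%, 14.4% and 10.3% of all tested genes. In each of these comparisons 9930017N22Rik was among the 2, beside Gm48965 without a tumour and averaged and Gm7968 with a tumour. 9930017N22Rik (ENSMUSG00000115276, 34127090 to 34130834) lies inside the span of Mtdh on the same strand. Exon positions were not compared and the counting rule is not given, so reads from it and from Mtdh may not have been told apart. The shares above therefore include a row that may not be separate from Mtdh. Its values were 29.4, 86.2 and 69.1 (WT) and 0, 9.78 and 0 (KO) in livers without a tumour, and 133, 36 and 58.7 (WT) and 2.47, 0.65 and 2.41 (KO) in livers with one. Each KO library was below each WT library, as for Mtdh, and the averaged log2 fold change was −4.66 ± 0.77 (limma adjusted p = 0.171).

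On chromosome 15, 2 of 648 tested rows passed in the averaged comparison, Mtdh and Rpl31-ps8. They were also the only 2 of all 17380 tested genes that passed (0.0115%). With a tumour, 2 of the 4 tested genes that passed were on chromosome 15. Rpl31-ps8 (ENSMUSG00000067870, 90648482 to 90648859) is a processed pseudogene of a ribosomal protein gene outside the stretch examined. It was singled out after its values were seen. Its values were below 1 in each WT library. They were 34.9, 62.1 and 44.7 in KO livers without a tumour and 726, 129.8 and 208 with one. The fitted averaged log2 fold change, which for values this near 0 depends on the pseudocount, was 6.52 ± 0.65 (limma adjusted p = 0.000737). Reads of a pseudogene may also match near-identical copies, so the value is uncertain. Of the 485 other tested protein-coding genes of chromosome 15, 0 passed limma in the 3 genotype comparisons. When averaged, 58 of these 485 had an unadjusted p under 0.05, beside 1787 of all 17380 tested genes (10.3%).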
